A study of Mus musculus with 2 samples.

Results

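Primary granule barcodes are droplet barcodes that carried transcripts of the granule proteins made at the promyelocyte stage of neutrophil development. They were selected on the UMIs of 4 genes: a barcode entered when its UMIs (unique molecular identifiers, 1 per captured transcript) of Elane, Mpo, Prtn3 and Ms4a3 summed to at least 5, with at most 1 UMI of Cd3d, Cd3e and Cd3g together and at most 1 of Cd79a and Cd79b together. The rule found 811 of 14421 barcodes, 425 of 9591 in the liver-labelled library and 386 of 4830 in the spleen-labelled library. Since these UMIs chose the barcodes, their number and the levels of the 4 genes are given as a description.

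The cells came from female BALB/c mice (genotype label BALB/cAnNCrl) aged 7 to 8 weeks that carried liver metastases of 4T1, a mouse mammary carcinoma line. The tumor cells had been injected into the lower pole of the divided spleen, and that pole was then removed, so all mice of all groups had only part of a spleen. Mice received hepatic arterial infusion (HAI) of the vehicle or of CBL0137 at one of 2 doses, low and high. CBL0137 is a curaxin that acts on chromatin and on the histone chaperone FACT. Cells were taken 5 days after treatment, with 2 mice pooled per group. Which amounts the low and high dose were is not given for these samples, and the methods describe CD11b+ bead-isolated cells while the labels describe leukocytes. Each library held the 3 groups together, separated by hashtags, which are antibodies with an attached oligonucleotide. The 3 hashtag sequences are shown because they alone set the dose group of a barcode.
A0301, vehicle: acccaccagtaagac
A0305, low dose: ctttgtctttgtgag
A0310, high dose: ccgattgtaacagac
A barcode was given the group of its most abundant hashtag when that hashtag had at least 10 UMIs and at least 3 times the next.

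A group was 1 pooled sample in each library, so there were no replicates and no test was run. All intervals are 95% limits for counting error alone and leave out variation among mice. Those of levels and ratios also leave out variation among barcodes, since UMIs of the same barcode were counted as independent. Both doses were set against the same vehicle barcodes. The assigned barcodes of the vehicle, low dose and high dose groups held 29033287, 26221617 and 17269607 gene UMIs in the liver-labelled library, and 7356870, 10897521 and 15603338 in the spleen-labelled library.

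The libraries went against their labels, and the deposited files are also named the other way round. Over all barcodes, in UMIs per 1000000 (CPM), 10 hepatocyte transcripts reached 103 in the liver-labelled library and 414 in the spleen-labelled library. Macrophage and Kupffer cell transcripts reached 114 and 2093, and liver endothelial transcripts 31.9 and 415. Clec4f, the defining gene of Kupffer cells, had 0 of 72524511 UMIs in the liver-labelled library, a limit of 0.0414 CPM, while it reached 133 CPM in the spleen-labelled library. Splenic transcripts (Spic, Cr2, Fcer2a and Ighd) reached 143 and 49.1. Each library is therefore called by its label, and no result is assigned to a tissue. The libraries shared 15 barcode sequences, and none of them was chosen in both.

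Neutrophils arise in the bone marrow from progenitors shared with monocytes. The promyelocyte fills its primary (azurophil) granules with serine proteases and myeloperoxidase. The myelocyte then stops making them and turns to secondary granule proteins such as lactoferrin and the cathelicidin. Tumors that secrete colony-stimulating factors, as 4T1 does, are known for driving such immature myeloid cells out of the marrow and into the spleen and liver.

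Elane (ENSMUSG00000020125, chromosome 10 from 79886247 to 79888215) encodes neutrophil elastase, and Prtn3 (ENSMUSG00000057729, chromosome 10 from 79874476 to 79883174) encodes proteinase 3. Mpo (ENSMUSG00000009350, chromosome 11 from 87793581 to 87804413) encodes myeloperoxidase. Ms4a3 (ENSMUSG00000024681, chromosome 19 from 11629496 to 11640851) encodes a membrane protein of granulocyte and monocyte progenitors. Ctsg (ENSMUSG00000040314, chromosome 14 from 56099881 to 56102574) encodes cathepsin G, a primary granule protease that the rule did not use. Positions are those of GENCODE mouse release 21. Stretches of 60 bases before the RefSeq start sites (build GRCm38.p6) are shown for the 3 rule genes of granule proteins and Ctsg, because these genes were found in the same barcodes. The RefSeq starts of Elane, Prtn3 and Mpo lie inside the GENCODE positions. The Prtn3 stretch is therefore within the GENCODE gene, and those of Elane and Mpo reach into it. Capitals mark GAGGAA, a core that PU.1 (Spi1), the factor that opens the myeloid program, is known to bind.
Elane, chr10:79886200-79886259, plus strand: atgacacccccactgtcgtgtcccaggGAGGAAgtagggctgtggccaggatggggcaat
Prtn3, chr10:79879545-79879604, plus strand: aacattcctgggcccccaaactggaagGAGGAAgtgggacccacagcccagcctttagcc
Mpo, chr11:87793534-87793593, plus strand: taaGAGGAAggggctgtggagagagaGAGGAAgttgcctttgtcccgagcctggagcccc
Ctsg, chr14:56102758-56102817, minus strand: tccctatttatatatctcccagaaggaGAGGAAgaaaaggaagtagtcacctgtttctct
The letters GAGGAA, searched on both strands from 250 bases before to 50 after the start, were in 28.3% of 32851 promoters and in all 4 of these. TTNCNNAA, a C/EBP core, was in none of the 4 and in 40.7% of all promoters. AACTG, a MYB core, was found 1 time in Prtn3 and in Mpo, 2 times in Ctsg, not in Elane, and in 44.8% of all promoters. Matches of different motifs were counted on their own, whether or not they shared bases.

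The chosen barcodes were far deeper than the others. Their median depth was 28197 UMIs in the vehicle group, 28330 in the low dose group and 29488 in the high dose group of the liver-labelled library, against 4440.5, 4566.5 and 4806 over all assigned barcodes. The medians in the spleen-labelled library were 18814, 18184 and 20239, against 5449, 4791.5 and 2667. Mitochondrial UMIs stood at medians of 2.30%, 2.02% and 2.70% in the former and 4.24%, 4.06% and 3.93% in the latter. A rule on UMIs favors deep barcodes, and depth within the chosen barcodes was close between the groups of a library. Free RNA was read from T cell barcodes, which should lack these genes. The 4 genes reached 19.1, 19.8 and 11.5 CPM there in the liver-labelled library and 27.3, 21.7 and 17.8 CPM in the spleen-labelled library. These barcodes had at least 3 CD3 UMIs, at most 1 UMI of Cd79a and Cd79b together and fewer than 5 of the 4 genes. The last limit capped the levels in advance, so they are no full measure of free RNA.

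All 5 markers of granulocyte progenitors were present in every group, although the classes described further on go in part against that name. Elane stood at 1373, 1631 and 1280 CPM in the vehicle, low dose and high dose groups of the liver-labelled library, and at 2757, 2357 and 2113 CPM in those of the spleen-labelled library. Prtn3 stood at 3938, 3927 and 3533 CPM, and at 6003, 5423 and 4409. Mpo stood at 653, 657 and 683 CPM, and at 1482, 1423 and 817. Ms4a3 stood at 516, 582 and 572 CPM, and at 793, 733 and 601. The high dose group was thus the lowest of the spleen-labelled library for these 4 genes, while the liver-labelled library showed no common order. Fcnb, which encodes ficolin B, stood at 196, 268 and 156 CPM, and at 126, 109 and 115. Its vehicle and high dose intervals overlapped in the spleen-labelled library (114 to 140 and 101 to 130).

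Ctsg, which was not part of the rule, had 875, 810 and 951 CPM in the liver-labelled library and 1626, 1536 and 948 CPM in the spleen-labelled library. It was highest in barcodes with the most UMIs of the rule genes, though it did not rise at every step. Its level in the liver-labelled library was 20.8 CPM in the 67 barcodes with 5 to 9 rule UMIs, 4.61 CPM in the 77 with 10 to 19 and 2466 CPM in the 95 with 300 to 1938. In the spleen-labelled library it was 7.62 CPM in 75 barcodes and 3719 CPM in the 102 with 300 to 1321. Genes of DNA replication were also higher at the top, with a summed 347 and 2861 CPM in the lowest and highest of these bands of the liver-labelled library and 802 and 2610 CPM in those of the spleen-labelled library. The threshold lay in a smooth tail: 28 barcodes had 5 rule UMIs and 36 had 4 in the liver-labelled library, and 20 and 28 did in the spleen-labelled library. Ctsg was 43.0 and 1.46 CPM in the former pair, and 3.19 and 0 CPM in the latter.

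Primary granule barcodes made up a smaller part of the treated groups in both libraries. In the liver-labelled library they were 197 of 3360 vehicle barcodes (5.86%, 5.09 to 6.71), 141 of 3408 low dose barcodes (4.14%, 3.49 to 4.86) and 87 of 2143 high dose barcodes (4.06%, 3.26 to 4.98). The high dose share lay 1.80 points under the vehicle (difference -1.80, -2.97 to -0.600) and the low dose share 1.73 points (-1.73, -2.79 to -0.669). These differences did not hold throughout. Without barcodes that carried monocyte transcripts they were 0.0481 points (-0.905 to 1.05) and -0.308 points (-1.14 to 0.523). With barcodes thinned to 1000 UMIs the low dose difference was -0.835 points (-1.72 to 0.0498). In the spleen-labelled library they were 145 of 820 (17.7%, 15.1 to 20.5), 139 of 1318 (10.5%, 8.94 to 12.3) and 102 of 2345 (4.35%, 3.56 to 5.26). There the difference was -7.14 points (-10.4 to -4.02) at the low dose and -13.3 points (-16.2 to -10.6) at the high dose. A share also depends on the other barcodes of its group, and numbers of cells per organ were not measured here.

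The denominator of the high dose group in the spleen-labelled library rested on the hashtag call. HTODemux of Seurat called 1425 of these 2345 barcodes negative, and 23 of the 102 primary granule barcodes. None of the 102 went to another dose group, and 6 were called doublets. With HTODemux the share was 16.9%, 10.5% and 8.44%, and the high dose difference -8.47 points (-11.7 to -5.23). The same call in the liver-labelled library gave 5.87%, 4.35% and 3.93%. When barcodes with fewer than 200 genes or with 10% or more mitochondrial UMIs were left out, the high dose share of the spleen-labelled library was 102 of 1253, or 8.14%. The same filter gave 140 of 692 (20.2%) for the vehicle and 138 of 1096 (12.6%) for the low dose. The high dose difference was then -12.1 points (-15.6 to -8.72).

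**Figure D1:**
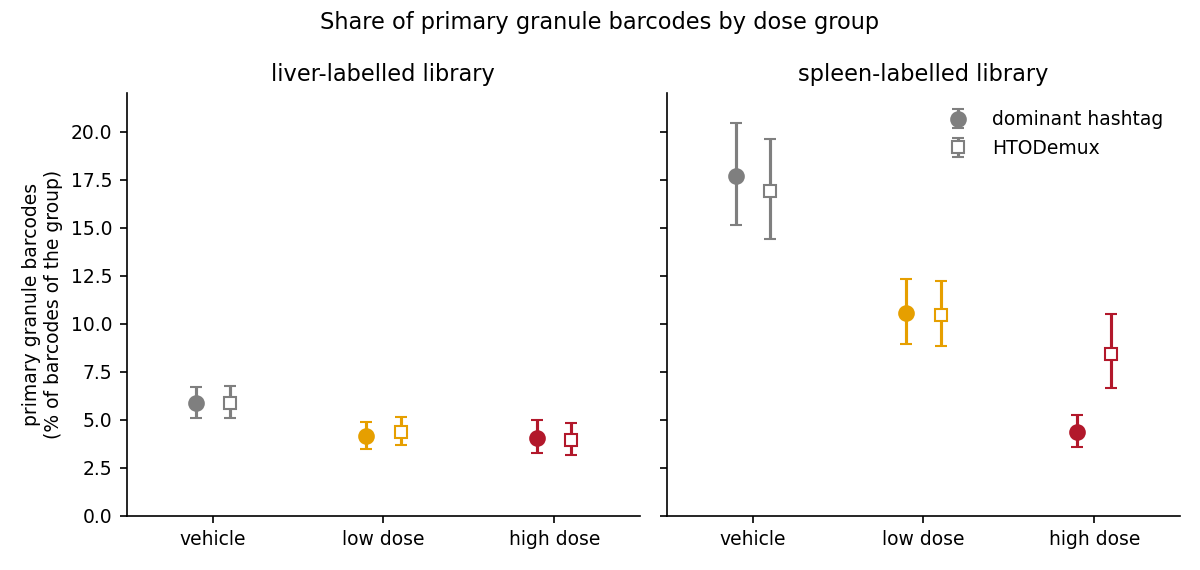
Share of primary granule barcodes among the assigned barcodes of each dose group (y axis, percent), for the liver-labelled library (left) and the spleen-labelled library (right), with barcodes assigned by the dominant hashtag (filled circles) or HTODemux (open squares) and exact 95% intervals. The vehicle group is the highest in both panels, and the 2 hashtag calls part only for the high dose group of the spleen-labelled library, at 4.35% and 8.44%.

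Barcodes of the next stage were counted apart, as those with at least 20 UMIs of Camp, Ngp and Ltf and fewer than 5 of the rule genes. They made up 7.44%, 7.51% and 5.60% of the groups in the liver-labelled library and 8.78%, 10.0% and 4.56% in the spleen-labelled library. The ratio of primary granule barcodes to these immature neutrophil barcodes was 0.788, 0.551 and 0.725 in the former and 2.01, 1.05 and 0.953 in the latter. The vehicle group of the spleen-labelled library thus stood apart, with the other 5 groups between 0.551 and 1.05.

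The primary granule barcodes were not 1 kind of cell. By transcripts of secondary granules (at least 20 UMIs of Camp, Ngp and Ltf) and of monocytes (at least 3 UMIs of Csf1r, F13a1, Ccr2 and Cx3cr1), 213 of the 425 in the liver-labelled library carried granule transcripts alone, 138 monocyte transcripts alone, 18 both and 56 neither. The spleen-labelled library held 166, 136, 13 and 71 of 386. The label of granulocyte progenitors therefore fits only some of the barcodes. These classes were chosen after the data were seen and are ranges, not types. Near the limits lay 7 barcodes with 10 to 99 granule UMIs and 31 with 2 to 4 monocyte UMIs in the liver-labelled library, and 20 and 18 in the spleen-labelled library. Barcodes with both sets had median depths of 32726.5 and 22554 UMIs, above 29545 and 19083.5 of the granule class, 27978.5 and 20414.5 of the monocyte class and 20165.5 and 18414 of the class with neither. No doublet caller was run, and doublets within a hashtag remain in the data.

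**Figure D2:**
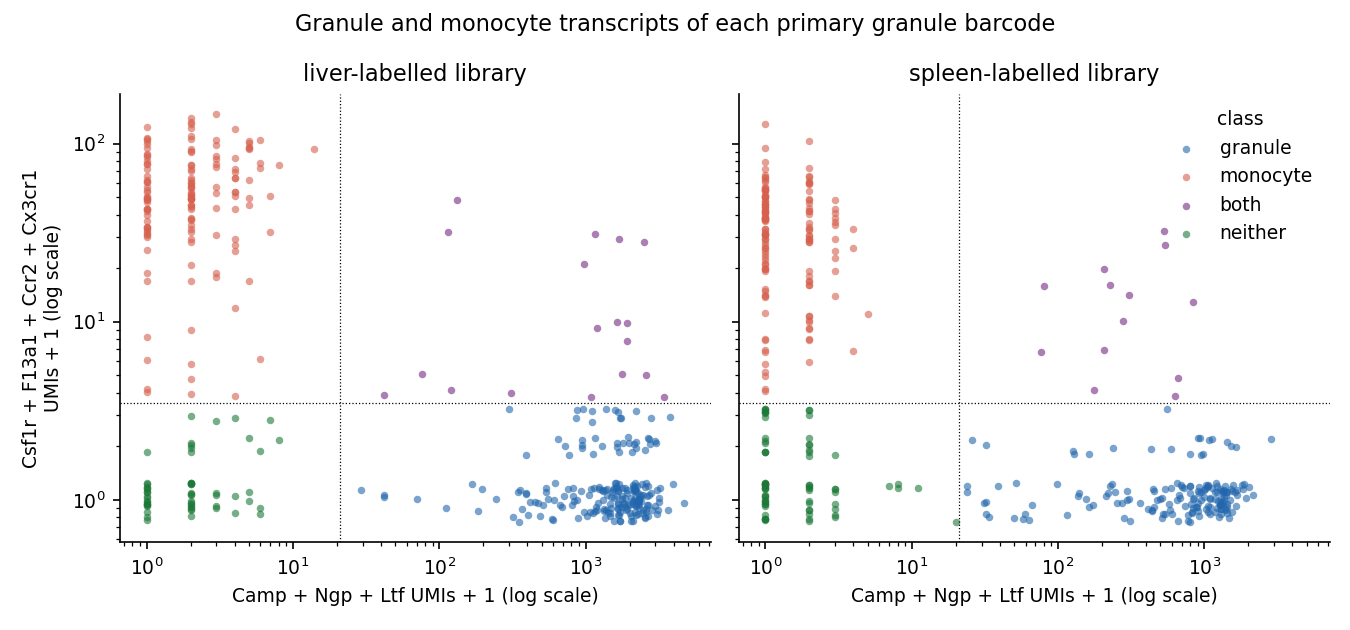
UMIs of Camp, Ngp and Ltf (x axis, log scale after adding 1) against UMIs of Csf1r, F13a1, Ccr2 and Cx3cr1 (y axis, log scale after adding 1, with a small vertical spread to part the points) in each primary granule barcode of the liver-labelled library (left) and the spleen-labelled library (right). Dotted lines are the limits of the 4 classes, and most barcodes lie in the arms of granule transcripts (213 and 166) or monocyte transcripts (138 and 136), with few in the corner of both (18 and 13).

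The class with neither set carried the genes of earlier progenitors, which took no part in drawing the classes. Summed over 12 stem and early progenitor genes, its level was 957 CPM in the liver-labelled library, where the monocyte class had 77.5 CPM and the granule class 2.96. In the spleen-labelled library the levels were 909, 105 and 4.99 CPM. Nucleolar genes ran the same way, at 6551, 3643 and 634 CPM in the liver-labelled library and 6237, 4135 and 903 CPM in the spleen-labelled library. FACT subunits and other histone chaperones stood at 5619, 3926 and 1245 CPM, and at 5152, 4004 and 1343 CPM. This list and the nucleolar list share Npm1, so their levels are not independent. At least 3 UMIs of Kit, Cd34, Flt3 and Sox4 were found in 37 of the 56 barcodes of this class in the liver-labelled library and in 41 of 71 in the spleen-labelled library, against 1 of 213 and 1 of 166 of the granule class. The class also held basophil and mast cell transcripts, at 4115, 14401 and 1234 CPM in the vehicle, low dose and high dose barcodes of the liver-labelled library and 792, 2039 and 199.8 CPM in those of the spleen-labelled library.

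The makeup of the primary granule barcodes shifted with dose in the liver-labelled library. The class with neither set was 10 of 197 vehicle barcodes (5.08%), 15 of 141 low dose barcodes (10.6%) and 31 of 87 high dose barcodes (35.6%). The barcodes of this class held a median of 351, 56 and 15 rule UMIs in the 3 groups, so those of the high dose lay nearer the limit of 5. Without barcodes that carried C1q, basophil or globin transcripts it was 7 of 192 (3.65%), 9 of 133 (6.77%) and 29 of 84 (34.5%). Its share of the primary granule barcodes was 30.6 points higher at the high dose than after the vehicle (19.8 to 41.9), and of all assigned barcodes it was 0.298% and 1.45%. At the low dose its share of the primary granule barcodes differed by 5.56 points (-0.544 to 12.4), an interval that spans 0. Of those 31 barcodes, 25 had at least 3 UMIs of Kit, Cd34, Flt3 and Sox4. The monocyte class went the other way, from 85 of 197 (43.1%) to 35 of 141 (24.8%) and 18 of 87 (20.7%). Its difference was -18.3 points (-28.3 to -7.70) at the low dose and -22.5 points (-33.2 to -10.2) at the high dose. The granule class was 48.2%, 57.4% and 42.5%, and the intervals of both differences from the vehicle spanned 0. Without the barcodes that carried monocyte transcripts, the primary granule share of the liver-labelled library was 3.12%, 2.82% and 3.17%, differences from the vehicle of -0.308 points (-1.14 to 0.523) and 0.0481 points (-0.905 to 1.05).

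The spleen-labelled library showed no such shift by the dominant hashtag. The class with neither set was 26 of 145 (17.9%), 27 of 139 (19.4%) and 18 of 102 (17.6%), and the monocyte class 33.8%, 41.7% and 28.4%. The high dose differences were -0.284 points (-10.2 to 10.3) and -5.36 points (-17.2 to 7.05). Of all assigned barcodes, in contrast, the class with neither set was 3.17% after the vehicle and 0.768% at the high dose. The monocyte class was 5.98% and 1.24%, and the granule class 7.93% and 2.22%. These went with the lower primary granule share of that group, whose denominator rested on the hashtag call. Hashtag UMIs varied with the class: the median own hashtag of the class with neither set was 1018.5, 915 and 456.5 UMIs in that library, against 3050, 2163 and 1343 over all primary granule barcodes. HTODemux kept 4 of the 18 high dose barcodes of this class and called the other 14 negative, which brought the class to 5.48% of the primary granule barcodes of that group. For the liver-labelled library it gave 5.49%, 10.1% and 35.7%.

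**Figure D3:**
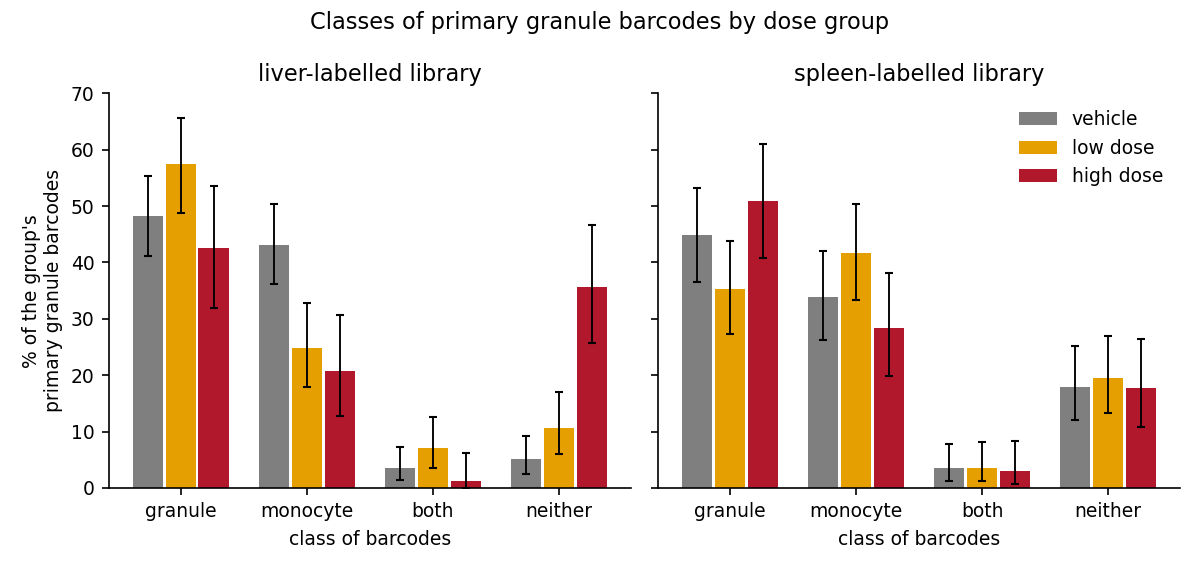
Percent of each group's primary granule barcodes in the 4 classes (y axis), with 1 bar per dose group and exact 95% intervals, for the liver-labelled library (left) and the spleen-labelled library (right). In the liver-labelled library the class with neither set stands at 5.08%, 10.6% and 35.6% and the monocyte class at 43.1%, 24.8% and 20.7%, while the class with neither set keeps between 17.6% and 19.4% in the spleen-labelled library.

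Expression was compared over the UMIs of a group's primary granule barcodes, scaled to CPM, and ratios carry exact limits. A gene was compared when it had at least 50 UMIs over both groups, and counted when it differed by at least 2-fold. At the high dose, 289 of 7987 genes were higher by that much in the liver-labelled library (3.62%) and 94 were lower (1.18%). In the spleen-labelled library 182 of 6973 genes were higher (2.61%) and 98 lower (1.41%). Hepatocyte transcripts went with the high dose of the spleen-labelled library: the 10 listed genes summed to 106, 78.4 and 506 CPM in its primary granule barcodes, all 6 compared were at least 2-fold higher, and at the high dose 61 barcodes held their 1095 UMIs and 1 of them 380. Trf was the most abundant (294 CPM), and 1 of the 10 was at 0. After the vehicle Trf held 96.1 of the 106 CPM. The other genes compared thus met the limit of 50 UMIs mainly through the high dose, which favors a ratio past 2-fold. The 6 genes of 4T1 cells summed to 14.7, 9.75 and 49.4 CPM, with 57 of 107 high dose UMIs in 1 barcode, Krt18 the most abundant (27.7 CPM) and 3 of the 6 at 0. In the granule class alone the vehicle and high dose had 78.9 and 318 CPM of the hepatocyte genes and 1.61 and 69.6 CPM of the 4T1 genes. Their part in the differences was not tested. The low dose differed less from the vehicle, with 45 of 8122 genes higher (0.554%) and 78 lower (0.96%) in the liver-labelled library, and 66 of 7353 higher (0.898%) and 23 lower (0.313%) in the spleen-labelled library. In either direction that was 4.8% and 4.02% of genes at the high dose and 1.51% and 1.21% at the low dose. The median log2 ratio over all genes compared was 0.07 and -0.06 at the high dose and -0.09 and 0.08 at the low dose. The balance of higher and lower genes turned under some alternatives. At the high dose of the spleen-labelled library it was 195 and 308 with HTODemux and 28 and 145 with at least 50 rule UMIs. Without barcodes that carried C1q, basophil or globin transcripts it was 75 and 119. With at least 50 rule UMIs it was 59 and 156 at the high dose of the liver-labelled library. At the low dose of that library it was 80 and 10 without barcodes that carried monocyte transcripts.

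Stem and early progenitor genes were higher at the high dose in the liver-labelled library, with all 8 of the 8 listed genes that had enough UMIs past 2-fold, against 3.62% of all genes. Their median log2 ratio was 2.69, and the 12 listed genes summed to 44.8, 108 and 319 CPM. Cd34 (ENSMUSG00000016494, chromosome 1 from 194938819 to 194961279), a surface marker of progenitors, had 7.01, 22.4 and 47.4 CPM. It was found in 8, 14 and 23 barcodes, and its high dose log2 ratio was 2.76 (2.24 to 3.30). Sox4, a transcription factor of progenitors, had 8.89, 20.0 and 76.2 CPM (3.10, 2.65 to 3.57). Kit, the receptor for stem cell factor, had 3.42, 7.80 and 15.0 CPM (2.14, 1.32 to 2.99). The 3 groups kept the same order for each of these genes, and 4 of the 6 listed genes compared at the low dose were past 2-fold (background 0.554%). The limit of 50 UMIs favors genes that are high in 1 group, and those under it included Flt3 (11 vehicle UMIs and 23 high dose UMIs), Mecom (1 and 48) and Ly6a (1 and 34). The higher level went with the larger class with neither set, and within that class the summed level was 421, 974 and 1143 CPM in 10, 15 and 31 barcodes. After each barcode was thinned to 2000 UMIs, which left out 0, 1 and 2 barcodes, 6.60%, 12.1% and 29.4% of primary granule barcodes had a UMI of the 12 genes (24.4%, 23.4% and 46.0% before thinning). The T cell barcodes of that library had 3.93%, 4.46% and 7.77%, at median depths of 5027.5, 4891.5 and 5146.5 UMIs. T cells express Ly6a of this list, so these shares are no background for it.

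The spleen-labelled library did not show this. The same 12 genes summed to 224, 210 and 157 CPM there, with a high dose log2 ratio of -0.51 (-0.71 to -0.32). The median log2 ratio of those compared was -0.67 by the dominant hashtag and -3.84 by HTODemux, which kept 4 of the 18 high dose barcodes with neither set. Meis1 and Hoxa9, homeobox factors of stem cells and early progenitors, were lower by 2-fold or more, from 25.6 to 12.5 CPM (log2 ratio -1.03, -1.73 to -0.38) and from 16.01 to 7.39 CPM (-1.12, -2.03 to -0.27). The share with a UMI of the 12 genes at 2000 UMIs was 13.3%, 18.2% and 12.0%, and 6.25%, 11.3% and 20.7% of T cell barcodes, which express Ly6a of this list, had one, so these cells give no background for the list. In the liver-labelled library Meis1 and Hoxa9 had gone from 5.30 to 32.7 CPM and from 6.15 to 19.3 CPM. No listed gene of the 7 compared was past 2-fold higher, and 2 were lower (background 1.41%). The vehicle barcodes already differed between libraries. Summed over the 12 genes, they had 262 UMIs (44.8 CPM) in the liver-labelled library and 658 UMIs (224 CPM) in the spleen-labelled library. The log2 ratio was 2.32 (2.12 to 2.54). Of 7 listed genes compared, 6 were at least 2-fold higher in the spleen-labelled library (background 2.43% of 8026 genes, and 3.21% in either direction). The minimum of UMIs for a comparison favors genes that are high in either library. The count of 6 therefore cannot be judged against that background.

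Genes of the monocyte lineage were lower at the high dose in the liver-labelled library, where 7 of 10 listed genes were at least 2-fold below the vehicle (background 1.18%) and the summed level was 1876, 1203 and 801 CPM. The lower level went with the smaller monocyte class: within that class 1 of the 10 was lower and 1 higher at the high dose, with a median log2 ratio of -0.24 and summed levels of 4113 and 3094 CPM (log2 ratio -0.41). Csf1r, F13a1, Ccr2 and Cx3cr1 of the list also define the class, which limits how far these levels could differ within it. Klf4 (ENSMUSG00000003032, chromosome 4 from 55527143 to 55532466), a transcription factor of monocytes, had 75.5, 36.1 and 15.8 CPM, in 72, 28 and 12 barcodes (high dose log2 ratio -2.26, -2.76 to -1.79). Irf8, which directs progenitors to monocytes and dendritic cells, had 102, 62.6 and 45.1 CPM (-1.18, -1.48 to -0.89). Ly6c2, which encodes the Ly6C antigen of inflammatory monocytes, had 269, 144 and 83.2 CPM (-1.69, -1.91 to -1.49). F13a1, for coagulation factor XIII, had 417, 268 and 185 CPM (-1.17, -1.31 to -1.03). All 4 were in the order vehicle, low dose, high dose.

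In the spleen-labelled library the summed level of the same list was 1512, 1615 and 1852 CPM. Klf4 had 41.9, 54.3 and 22.2 CPM and Irf8 88.2, 130 and 85.5 CPM, so both were highest at the low dose. The sum was carried by Fn1, for fibronectin, which went from 247 to 666 CPM (log2 ratio 1.43, 1.30 to 1.56). Macrophage transcripts moved with it: 9 of the 102 high dose barcodes had at least 10 UMIs of C1qa, C1qb and C1qc, against 2 of 145 vehicle and 3 of 139 low dose barcodes. The 8 macrophage and Kupffer cell markers summed to 53.1, 99.6 and 998 CPM, with C1qa the most abundant at the high dose (395 CPM) and none of the 8 at 0. Without the barcodes that carried C1q, basophil or globin transcripts, the median log2 ratio of the monocyte list was -0.54, against -0.21 with them, and genes at least 2-fold higher at the high dose numbered 75, against 182.

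**Figure D4:**
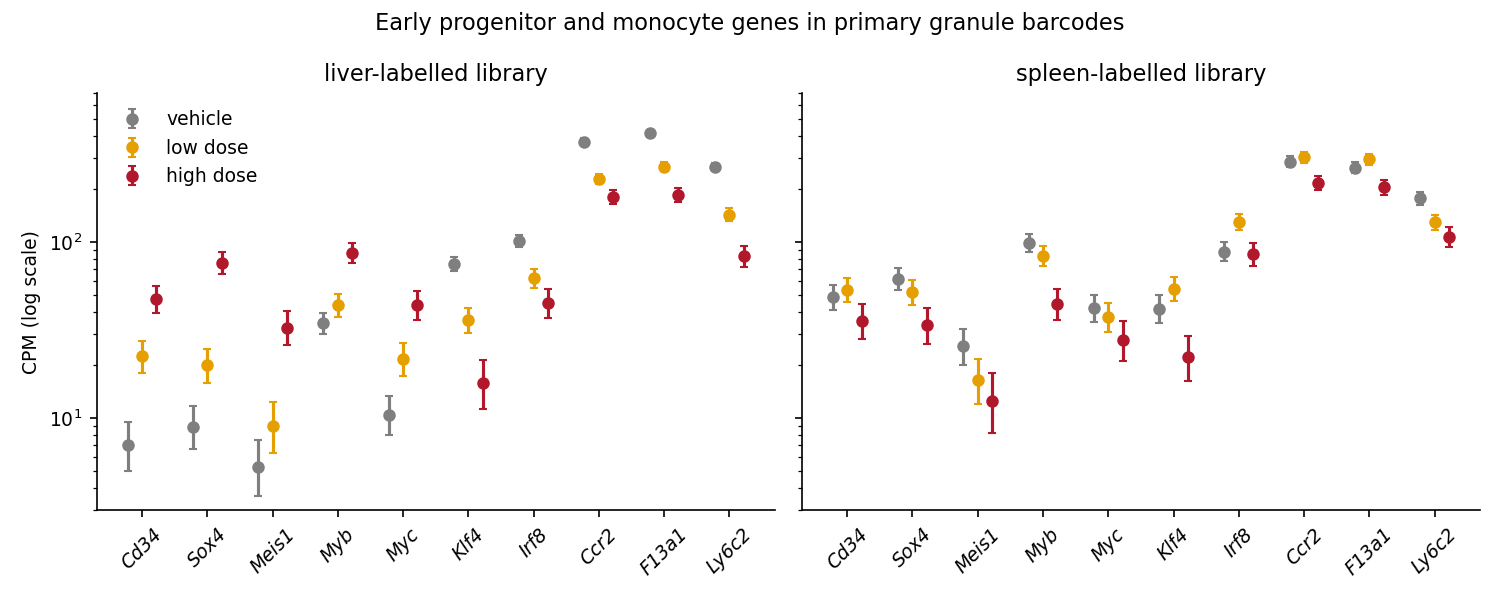
Level of early progenitor and monocyte genes in primary granule barcodes (y axis, CPM on a log scale), with 1 point per dose group and exact Poisson 95% limits, for the liver-labelled library (left) and the spleen-labelled library (right). In the left panel Cd34 goes from 7.01 to 47.4 CPM and Klf4 from 75.5 to 15.8 CPM between the vehicle and the high dose, while in the right panel Cd34 stands at 48.7 and 35.6 CPM and Klf4 at 41.9 and 22.2 CPM.

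Other primary granule proteins and the proteins that pack or process them were followed through 10 listed genes. None was 2-fold higher in either library at either dose, where the background was 0.554% to 3.62%, and the only one 2-fold lower was Lyz2 at the high dose of the liver-labelled library (background 1.18%). Counts this near the background set these genes apart from no others. Lyz2 encodes lysozyme, which monocytes also make, and had 5787, 4493 and 2220 CPM there (log2 ratio -1.38, -1.42 to -1.34) and 4160, 3626 and 4830 CPM in the spleen-labelled library. Ctsg was lower at the high dose only in the spleen-labelled library, with a log2 ratio of -0.78 (-0.85 to -0.70) beside 0.12 (0.05 to 0.19). The difference between the libraries was not tested. Srgn, for the proteoglycan core that holds proteases in the granule, had 719, 891 and 1147 CPM in the liver-labelled library and 1458, 1438 and 1446 CPM in the spleen-labelled library.

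Of 12 secondary granule genes, 1 was past 2-fold in each of 2 comparisons, both times higher, at the low dose of the liver-labelled library (background 0.554%) and at the high dose of the spleen-labelled library (2.61%). Camp (ENSMUSG00000038357, chromosome 9 from 109847379 to 109849617), for the cathelicidin, had 9568, 12452 and 6728 CPM in the liver-labelled library and 5861, 4646 and 7216 CPM in the spleen-labelled library. Ltf, for lactoferrin, had 2322, 2320 and 1985 CPM, and 1431, 759 and 2095 CPM. The high dose was thus the lowest group of the liver-labelled library and the highest of the spleen-labelled library for both. Chil3, for a chitinase-like protein, was past 2-fold at the low dose of the liver-labelled library, with 805, 1970 and 976 CPM (low dose log2 ratio 1.29). Adam8, for a metalloprotease, was past it at the high dose of the spleen-labelled library, with 18.1, 22.6 and 94.7 CPM (2.39, 1.95 to 2.85). In the granule class alone the medians of the secondary list at the high dose were -0.01 and 0.00.

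**Figure D5:**
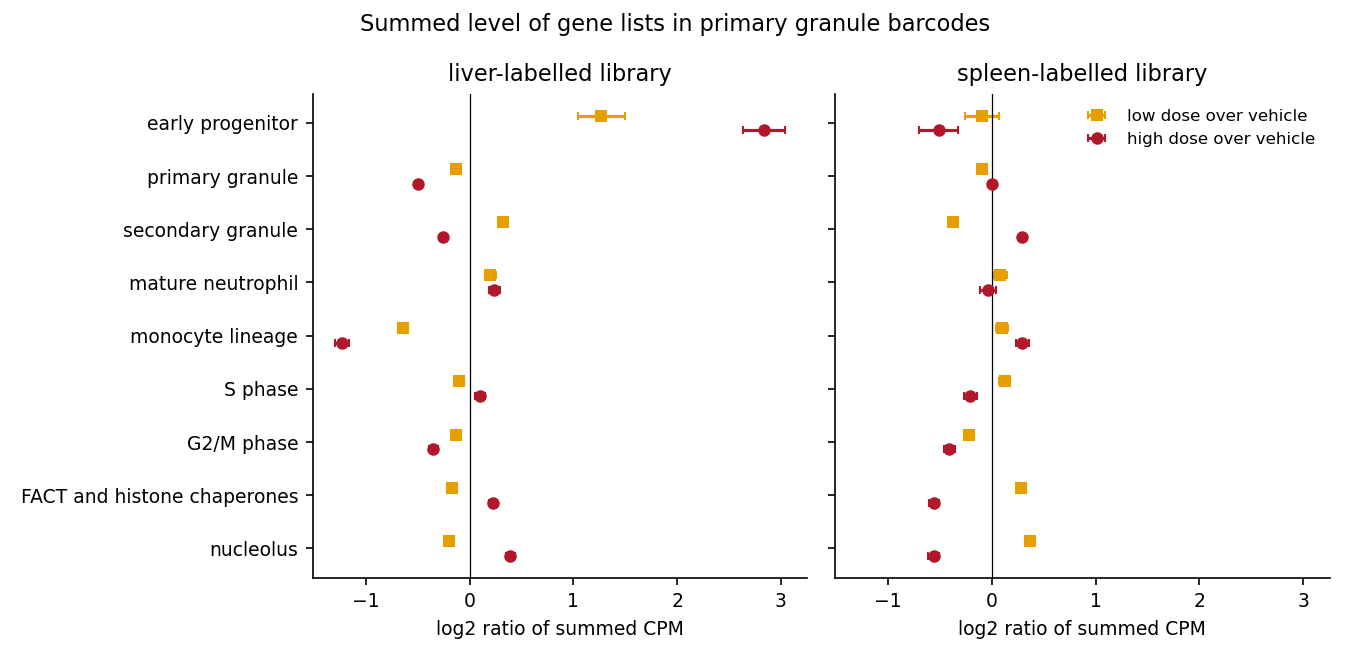
Log2 ratio of the summed CPM of 9 gene lists of development, division and chromatin in primary granule barcodes (x axis), for the low dose and the high dose over the vehicle with exact 95% limits, in the liver-labelled library (left) and the spleen-labelled library (right). Of these lists, early progenitor genes at the high dose stand farthest from 0 on the left, at 2.83, where monocyte genes are at -1.23, while the same lists are at -0.51 and 0.29 on the right.

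Transcription factors of the lineage differed from one another. Cebpe, which turns on secondary granule genes, had 321, 377 and 321 CPM in the liver-labelled library and 282, 223 and 334 CPM in the spleen-labelled library. Spi1, for PU.1, had 370, 392 and 380 CPM, and 301.2, 326 and 363 CPM. Of 17 transcription factors compared at the high dose, 5 were 2-fold higher and 2 lower in the liver-labelled library (background 3.62% and 1.18%), and none was higher and 3 were lower in the spleen-labelled library (2.61% and 1.41%). Myb, a factor of dividing progenitors, was among them in both, with opposite directions: 34.7, 43.9 and 87.0 CPM in the former (log2 ratio 1.33, 1.05 to 1.61) and 99.1, 83.9 and 44.4 CPM in the latter (-1.16, -1.51 to -0.82). Of the growth factor receptors, Csf3r, the receptor for G-CSF, had 46.7, 57.3 and 70.5 CPM, and 51.1, 42.5 and 69.3 CPM, below 2-fold in both.

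Most primary granule barcodes held transcripts of dividing cells. After thinning each barcode to 2000 UMIs, a UMI of 22 genes of G2 and mitosis was found in 79.2%, 78.6% and 68.2% of them in the liver-labelled library and in 81.1%, 82.5% and 65.0% in the spleen-labelled library. T cell barcodes at the same depth had 8.15%, 8.11% and 9.11%, and 27.1%, 27.0% and 32.8%. The high dose difference was -11.0 points (-23.2 to 0.62) in the former and -16.1 points (-28.0 to -4.26) in the latter. Before thinning the shares were 95.9%, 92.9% and 90.8%, and 93.1%, 92.8% and 86.3%. At 1000 UMIs the high dose difference of the spleen-labelled library was -3.70 points (-16.3 to 8.74) and before thinning -6.83 points (-15.8 to 1.27), so its interval left out 0 at 2000 UMIs alone of these 3 depths. All 22 genes of G2 and mitosis had log2 ratios below 0 at the high dose in both libraries, with summed log2 ratios of -0.35 (-0.39 to -0.31) and -0.41 (-0.46 to -0.36). In the granule class alone the median of the list was -0.06 and 0.02. No gene of this list or of the 22 genes of DNA replication differed by 2-fold at the high dose in either library, against 4.8% and 4.02% of all genes, and Mki67, a marker of cycling cells, had 327, 292 and 258 CPM, and 283, 252 and 191 CPM.

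Over all primary granule barcodes, the subunits of FACT, the chaperone on which CBL0137 acts, differed from the vehicle by less than 2-fold. Ssrp1 had 111, 108 and 124 CPM in the liver-labelled library and 145, 161 and 101 CPM in the spleen-labelled library (high dose log2 ratios 0.16, -0.04 to 0.35, and -0.51, -0.76 to -0.28). Supt16 had 121, 107 and 143 CPM, and 123, 137 and 85.9 CPM (0.23, 0.05 to 0.42, and -0.51, -0.78 to -0.25). Nucleolar genes went the same way, at 2206 and 2895 CPM after the vehicle and the high dose in the liver-labelled library and 3015 and 2046 CPM in the spleen-labelled library. Npm1, which is also in the list of FACT and other histone chaperones, made up 965 of the 2206 CPM. The lower levels of the spleen-labelled library were not found in its granule class, where nucleolar genes had 874 and 933 CPM and FACT and chaperone genes 1312 and 1336 CPM, and without barcodes that carried monocyte transcripts the nucleolar median was 0.075. In the monocyte class of that library, in contrast, FACT and chaperone genes had 4147 and 1951 CPM, and 7 of 9 compared were at least 2-fold lower. Over all genes compared in that class 310 of 4250 were lower. Macrophage and Kupffer cell markers also moved there, from 79.3 to 2313 CPM, and megakaryocyte genes from 19.6 to 2435 CPM. The high dose barcodes of the class held a median of 12 rule UMIs, against 44 after the vehicle. None of the 10 and 9 target genes of p53 compared at the high dose was past 2-fold, against 4.8% and 4.02% of all genes, which is near the background for lists this short. Zbp1, the sensor of Z-form nucleic acids, had 25.3, 7.80 and 15.8 CPM, and 24.5, 11.8 and 30.0 CPM, lowest at the low dose in both libraries (low dose log2 ratios -1.70 and -1.05). Over all assigned barcodes Zbp1 was higher and moved the same way, from 40.7 to 26.8 CPM and from 47.8 to 34.6 CPM. The part of free RNA in its values was not tested. Ripk3, the partner of Zbp1, had 27.7, 26.3 and 32.3 CPM, and 33.1, 29.6 and 27.3 CPM.

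Inflammatory genes differed between libraries and, for some, between doses. Of 12 genes of NF-kB and its targets compared in vehicle barcodes, 6 were at least 2-fold higher in the spleen-labelled library (background 2.43%), and Cxcl2, a neutrophil chemokine, stood at 8.03 and 329 CPM. The whole list summed to 381 and 856 CPM there, against 905 and 3194 CPM over all assigned vehicle barcodes. The part of free RNA in this difference was not tested. Il1b (ENSMUSG00000027398, chromosome 2 from 129364570 to 129371139), a cytokine of activated myeloid cells, had 8.37, 38.0 and 23.5 CPM in the liver-labelled library and 57.9, 188 and 92.9 CPM in the spleen-labelled library. The low dose was the highest group in both, with log2 ratios of 2.18 and 1.70, and Il1b UMIs were found in 25, 22 and 13, and 24, 29 and 20 barcodes. In the liver-labelled library 54 of the 156 low dose UMIs were in 1 barcode. Over all assigned barcodes Il1b was far higher and moved the same way, from 309 to 564 CPM and from 638 to 1276 CPM between the vehicle and the low dose, so free RNA and expression cannot be told apart here. Ccl3, a macrophage chemokine, was lower at the high dose in both, from 14.9 to 5.78 CPM and from 51.1 to 8.32 CPM (-1.36 and -2.62). Fos, an immediate early factor, was also lower in both, at 134, 75.3 and 38.9 CPM and 585, 429 and 286 CPM (-1.78 and -1.03). Over all assigned barcodes Fos was higher after the vehicle and lower at the high dose as well, at 281 and 37.9 CPM and 870 and 182 CPM, so free RNA and expression cannot be told apart for it either.

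Of the 6876 genes compared in both libraries at the high dose, 183 and 117 were at least 2-fold higher, and 20 of them in both (10.9% of the former and 17.1% of the latter). The same mice may have given both libraries, so the libraries are not independent. Prok2, for prokineticin 2, a granulocyte peptide, had 45.8, 40.9 and 121 CPM, and 30.0, 32.7 and 87.3 CPM (log2 ratios 1.40 and 1.54). For 4 of the 20 (Cxcl9, Iigp1, Fbp1 and Krt18) a single barcode held more than 50% of the high dose UMIs in at least 1 library. Cxcl9 had 0 UMIs after the vehicle in both, and its 119 UMIs at the high dose of the liver-labelled library were in 1 barcode, as were 101 of 103 in the spleen-labelled library. Iigp1 had 34 of its 58 high dose UMIs in 1 barcode of the former and 17 of 45 in the latter. Fbp1 had 32 of 49 and Krt18 31 of 60 in 1 barcode of the spleen-labelled library. Igtp was found in 24 vehicle and 19 high dose barcodes of the liver-labelled library (4.61 and 14.6 CPM) and in 16 and 17 of the spleen-labelled library (7.15 and 14.3 CPM). Of the 6876 genes 62 and 94 were at least 2-fold lower, and 5 of them in both (8.06% and 5.32%), among them Fos, Ccl3 and the histone gene Hist1h2ac. A further 17 went past 2-fold in opposite directions. Over all genes compared in each library, 3.62% and 2.61% were higher and 1.18% and 1.41% lower.

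The genes with the largest ratios at the high dose in the liver-labelled library, among those with at least 200 UMIs and the same sign in the other library, were led by globins, and these came from a single barcode with 6142 of the 6243 globin UMIs. Serpina3g, a protease inhibitor of progenitors and activated lymphocytes, followed with 7.86, 15.6 and 118 CPM (log2 ratio 3.91, 3.46 to 4.39) and 32.7, 23.0 and 50.8 CPM. Ifitm1, an interferon-induced membrane protein, had 739, 743 and 2676 CPM (1.86, 1.80 to 1.91) and 1245, 1043 and 2244 CPM (0.85, 0.79 to 0.91), and was found in 162, 119 and 81, and 118, 107 and 92 barcodes. The most negative ratios were those of Klf4, Ly6c1, Fos and Ly6c2, followed by C1galt1c1, Crip1, Irf5 and Tifab, with log2 ratios from -1.63 to -1.30 in the liver-labelled library and from -0.71 to -0.03 in the other. Without barcodes that carried monocyte transcripts, Crip1 turned to a log2 ratio of 2.63 (2.12 to 3.18) in the liver-labelled library. Of the 5 leading genes at the low dose, Cpa3, Mcpt8 and Prss34 are genes of basophils and mast cells, and 5 of the 141 low dose barcodes held 98.0% of their 4202 UMIs. The others were Il1b, given above, and Il1r2. Il1r2, the decoy receptor for interleukin 1, had 55.5, 156 and 78.2 CPM, and 68.1, 129 and 96.1 CPM (low dose log2 ratios 1.49 and 0.92), in 105, 94 and 43, and 72, 59 and 63 barcodes. The 5 leading genes that were lower at the low dose were Ifi202b, Mndal, Apobec1, Trem2 and Ms4a6b. Ifi202b and Mndal, interferon-inducible genes of 1 family, had 42.4, 17.5 and 25.4 CPM and 85.4, 36.1 and 100.9 CPM in the liver-labelled library. The low dose log2 ratios of the 5 ran from -1.27 to -1.03 there and from -0.50 to -0.06 in the spleen-labelled library, where none passed 2-fold.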

How the data were processed

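RNA of single cells was measured in 2 droplet libraries. For each library the authors deposited a filtered matrix of UMI counts by gene and hashtag, without normalization, made with Cell Ranger (5.0.0 per the matrix header, 6.0.0 and build mm10 per the submitters' processing notes). Gene positions came from GENCODE mouse release M21 for 32158 of 32285 identifiers, and promoters from RefSeq for GRCm38.p6.

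Barcodes, groups and classes were selected as described above. UMIs were summed per group and scaled to 1000000 (CPM). Levels carry exact Poisson limits, ratios exact conditional binomial limits, and shares exact Clopper-Pearson limits, from which the limits of a difference of shares were combined, all at 95%. A count of 0 allows 3 counts. Shares with a UMI were taken at 2000 UMIs. With 1 pooled sample per group there was no test. On simulated high dose and vehicle counts, with 197 and 192 changed genes compared, the ratio interval covered the simulated ratio of 96.2% of 7928 genes (library labelled liver) and 96.4% of 7004 (library labelled spleen). These counts were Poisson draws of group totals without barcodes, which is what the interval assumes. The coverage therefore does not tell how the interval holds for UMIs clustered in few barcodes.

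Named genes were the markers, the members of the gene lists, and in the liver-labelled library the 8 largest rises and 8 largest falls at the high dose and 5 and 5 at the low dose, among genes with at least 200 UMIs and the same sign in the other library. A few of the genes so named are not reported here. Genes in both libraries past 2-fold, and Saa3, were named after their values were seen. The members, lists and comparisons were chosen with earlier results of these data known. Alternatives were other limits on rule UMIs, a filter on barcodes, other hashtag calls (HTODemux at a quantile of 0.99, or 10 times the next hashtag), other scaling, a mean over barcodes, other minimum counts, other thinning, and removal of barcodes with monocyte or granule transcripts. A CD3 limit without Cd3d, barcodes of at least 5000 UMIs, a rule of 50 UMIs, removal of barcodes of other lineages, and the granule class alone were added after the data were seen. Python 3.11.15, numpy 2.4.6, scipy 1.17.1, pandas 2.3.3, R 4.3.3 and Seurat 5.3.0 were used.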

Additional observations from a re-analysis of the deposited data

Results flagged for a closer look

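The 2 libraries went opposite ways at the high dose for 2 gene lists. The summed log2 ratio of the 12 early progenitor genes was 2.83 in the liver-labelled library and -0.51 in the spleen-labelled library. That of the 10 monocyte genes was -1.23 and 0.29. The difference between the libraries was not tested, and with 1 pooled sample per group and library it cannot be told apart from differences between pools. Fn1 carried the second sum in the spleen-labelled library, where barcodes with C1q transcripts also stood out at the high dose.

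Barcodes outside the selection also carried the rule genes. In the liver-labelled library 191 assigned barcodes with at least 5 rule UMIs were left out by the CD3 and CD79 limits, 155 of them through CD3, and in the spleen-labelled library 60 were, 37 of them through CD3. Their median depth was 35000 and 25713 UMIs and their median rule UMIs 41 and 69. Most of their CD3 UMIs were of Cd3d: they held 525 of Cd3d, 56 of Cd3e, 70 of Cd3g and 74 of Trac in the liver-labelled library, and 104, 31, 64 and 17 in the spleen-labelled library. Barcodes with at least 3 CD3 UMIs, in contrast, held 13924, 10370, 12504 and 8552 in the former. A further 23 and 27 barcodes met the marker limits but had no hashtag call. With the CD3 limit set on Cd3e and Cd3g alone, the liver-labelled library had 268, 184 and 109 primary granule barcodes (7.98%, 5.40% and 5.09%). The differences there were -2.58 points (-3.79 to -1.37) at the low dose and -2.89 points (-4.21 to -1.54) at the high dose. In the spleen-labelled library they were -7.67 points (-11.0 to -4.47) and -14.2 points (-17.1 to -11.4).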

How the results depend on the processing

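No paired analysis was possible because each group is 1 pooled sample per library, and for the same reason no replicate could be left out. Of 44 values of the share differences under alternatives, 32 stayed within the limits of the main value. Among these, the low dose difference of the liver-labelled library was -0.835 points (-1.72 to 0.0498) with barcodes thinned to 1000 UMIs, an interval that spans 0. The low dose difference of the liver-labelled library was -0.308 points without barcodes with monocyte transcripts and -4.01 among barcodes of at least 5000 UMIs. Its high dose difference changed sign to 0.0481 without barcodes with monocyte transcripts, and was -0.541 without those with granule transcripts and -4.96 among barcodes of at least 5000 UMIs. In the spleen-labelled library the low dose difference was -2.70 without granule transcripts and -12.1 among deep barcodes. The high dose difference there was -10.5 with barcodes thinned to 1000 UMIs, -8.47 with HTODemux, -8.11 without monocyte transcripts, -7.14 without granule transcripts and -18.7 among deep barcodes.

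Counts of genes past 2-fold moved more, and 58 of 104 stayed within 1.5 times the main count. At the low dose of the liver-labelled library (45 higher, 78 lower) they were 80 and 10 without monocyte transcripts, 105 higher without granule transcripts, 26 higher without other lineages, 19 and 18 in the granule class, 71 and 132 as a mean over barcodes, 149 and 205 with a minimum of 20 UMIs and 11 and 15 with a minimum of 200. At its high dose (289 and 94) they were 724 and 19 without monocyte transcripts, 199 lower without granule transcripts, 59 and 156 with a rule of 50 UMIs, 47 and 24 in the granule class, 484 higher as a mean over barcodes, 694 and 195 with 20 UMIs and 41 and 26 with 200. At the low dose of the spleen-labelled library (66 and 23) they were 43 and 36 without monocyte transcripts, 35 and 45 without granule transcripts, 6 higher in the granule class, 57 lower as a mean over barcodes, 206 and 106 with 20 UMIs and 7 and 0 with 200. At its high dose (182 and 98) they were 308 lower with HTODemux, 67 and 37 without monocyte transcripts, 157 lower without granule transcripts, 75 higher without other lineages, 28 higher with a rule of 50 UMIs, 52 and 8 in the granule class, 358 and 280 with 20 UMIs and 49 and 11 with 200. CPM without the 20 most abundant genes gave 54 and 60 at the low dose of the liver-labelled library and 49 and 29 at that of the spleen-labelled library.

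The median of the early progenitor list at the high dose was 3.496 without monocyte transcripts in the liver-labelled library and -3.84 with HTODemux in the spleen-labelled library. That of the monocyte list was -1.47 with a rule of 50 UMIs in the former, and -0.54 without other lineages and -1.45 with a rule of 50 UMIs in the latter. Signs turned for 17 list medians. Without monocyte transcripts they were -0.16 (secondary granule) and -0.16 (suppressive) at the low dose of the liver-labelled library, -0.025 (primary granule) at its high dose, and 0.075 (nucleolus) and -0.067 (suppressive) at the high dose of the spleen-labelled library. In the granule class they were -0.11 (secondary granule) and -0.11 (suppressive) at the low dose of the liver-labelled library, 0.0089 (secondary granule) and -0.11 (nucleolus) at the low dose of the spleen-labelled library, and 0.023 (G2 and mitosis), 0.056 (FACT and chaperones), 0.087 (nucleolus) and -0.15 (suppressive) at its high dose. The others were -0.081 for primary granule genes as a mean over barcodes and -0.58 for mature neutrophil genes without granule transcripts at the high dose of the liver-labelled library, 0.12 for secondary granule genes without granule transcripts at the low dose of the spleen-labelled library, and -0.20 for mature neutrophil genes with a rule of 50 UMIs at its high dose. Named genes that turned at the high dose of the liver-labelled library were Hba-a2 (-0.23) and Hba-a1 (-2.86) with a rule of 50 UMIs, Hba-a1 (-2.07) and Nedd4 (-0.25) in the granule class, and Crip1 (2.63) without monocyte transcripts. The share with a UMI of G2 and mitosis genes differed by -3.70 points at 1000 UMIs in the spleen-labelled library. The cause of these changes was not tested. Depth limits low genes: with 1 pooled sample per group the intervals cover counting error only.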

Other observations

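The monocyte class at the high dose of the spleen-labelled library was compared with that of its vehicle. Over 29 and 49 barcodes, 239 of 4250 genes were at least 2-fold higher and 310 lower. Its barcodes held a median of 12 rule UMIs, near the limit of 5, against 44 in the vehicle, and genes of DNA replication were lower in the barcodes with 5 to 9 rule UMIs than in those with the most, as given above. At least 2-fold lower were 14 of 17 genes of DNA replication, 17 of 22 of G2 and mitosis (-1.36), 9 of 12 nucleolar genes (-1.08) and 7 of 9 genes of FACT and other histone chaperones (-1.10). The nucleolar list and that of FACT and chaperones share Npm1. Of 8 suppressive effector genes of myeloid cells, 7 were higher. Markers of other cell types moved with these values: macrophage and Kupffer cell markers had 79.3 and 2313 CPM (4 of 4 compared at least 2-fold higher), megakaryocyte genes 19.6 and 2435 CPM and hepatocyte genes 141 and 475 CPM. Of the 29 barcodes, 25 carried no C1q, basophil or globin transcripts past the limits, and the part of the other 4 in these values was not tested. The monocyte class of the liver-labelled library, over 18 and 85 barcodes, had 111 of 6107 genes higher and 115 lower, and its median was -0.43 for G2 and mitosis with none of 22 past 2-fold.

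In the granule class alone, the high dose and the vehicle differed in fewer genes. In the liver-labelled library 47 of 4716 were higher and 24 lower, and in the spleen-labelled library 52 of 3501 and 8. Of 7 genes of mature neutrophils, 3 were at least 2-fold higher in the former (median log2 ratio 0.85), and none of 5 in the latter (0.27). Over all primary granule barcodes Retnlg, for a resistin-like protein of mature neutrophils, had 264, 366 and 527 CPM in the liver-labelled library and 327, 245 and 188 CPM in the spleen-labelled library, opposite orders of the 3 groups. Cxcr2, the receptor that leads neutrophils out of the marrow, had 63.2, 85.3 and 100.1 CPM, and 31.7, 34.5 and 53.1 CPM.

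The summed level of interferon-stimulated genes was lowest at the low dose of the liver-labelled library and also of the spleen-labelled library. The 11 measured of 12 listed genes summed to 177, 120 and 288 CPM in the liver-labelled library and 310, 239 and 310 CPM in the spleen-labelled library. None of 5 compared at the low dose was 2-fold lower in the former (background 0.96%) and 2 of 5 were in the latter (0.313%). Over all assigned barcodes the sums were higher and in a like order, at 460, 394 and 605 CPM and 561, 507 and 967 CPM, so free RNA and expression cannot be told apart. Wfdc17, a secreted inhibitor of inflammation, was also lowest at the low dose and highest at the high dose in both, with 1041, 696 and 1922 CPM and 879, 713 and 1870 CPM. Saa3, an acute phase protein, had 322 and 684 CPM at the vehicle and low dose of the liver-labelled library and 171 and 1094 CPM in the spleen-labelled library. Over all assigned barcodes it was higher, at 1906 and 1422 CPM in the former and 804 and 3289 CPM in the latter. The part of free RNA was not tested. At the high dose Saa3 went opposite ways in the primary granule barcodes, with 120.9 and 589 CPM (log2 ratios -1.41 and 1.78). Pf4, the platelet factor, reached 931 CPM at the high dose of the spleen-labelled library, where 20 barcodes held all 2028 UMIs of the 6 megakaryocyte genes and 1 of them 697.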
